A study of Mus musculus with 2 samples.

Results

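The genes described here take iron into mouse cells, move it out, store it and sense it. They are 10 genes chosen by name: Tfrc, Trf and Slc11a2 for uptake, Slc40a1 for export, Fth1, Ftl1 and Ncoa4 for storage and release, and Aco1, Ireb2 and Fbxl5 for sensing. They are 10 of the 20756 genes with a probe measured on both arrays, and were read through the probes whose gene name in the scanner files equals one of these symbols, 21 of the 56605 non-control probes. No probe with another name carried the accession of one of the 10 genes. The study set 1 sample of mouse cells given the agent S180 against 1 sample given DMSO, the solvent used as its control. The labels give no cell type, strain, genotype, age, dose or exposure time, do not say what S180 is, and name nothing else that both samples carry. Total RNA of each sample was labelled with Cy3 and hybridised to 1 Agilent whole-genome mouse array in 1 colour. Each group has 1 array, so the differences are given without a replicate check and without p-values.

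Most cells take up iron bound to transferrin, through the transferrin receptor, and pass it out of the endosome through a metal transporter. Iron that is not used is held in ferritin or leaves the cell through ferroportin. A pair of iron regulatory proteins, encoded by Aco1 and Ireb2, bind hairpins called iron-responsive elements in mRNAs when iron is scarce. That binding protects the Tfrc mRNA from decay and blocks translation of the ferritin and ferroportin mRNAs, so ferritin is controlled to a large degree without a change in its mRNA, which is all that an array measures. FBXL5, an F-box protein that binds iron, marks the iron regulatory proteins for degradation when iron and oxygen are present. Tfrc and Trf are also known targets of the hypoxia-inducible factors, and Fth1, Ftl1 and Slc40a1 of NRF2.

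Of the 59305 non-control spots, the scanner software called 61.91% well above background in S180 and 60.57% in DMSO, with 0 saturated. The arrays shared a slide and a scan time. Levels are given as log2 of the processed signal minus the 75th percentile of the array, a percentile that lay at a signal of 615.5 in S180 and 747.9 in DMSO. A probe counted as measured when it was well above background and not saturated on both arrays, which held for 32680 probes. A difference means the log2 level in S180 minus that in DMSO. Over the measured probes their median was 0.003 and their SD 0.288. The measured probes were split by mean signal into 3 classes of equal size, dim, middle and bright. Probes printed in 10 spots gave the error between single spots, and the SD of a difference was 0.278 in the dim class (10 probes), 0.079 in the middle class (5 probes) and 0.042 in the bright class (264 probes). This error covers the array only, and their number limits its precision. The scanner software gives a larger error, which for the member differences was 0.204 to 0.351 on the log2 scale, and 13 of the 21 member differences exceeded 2 spot SDs but only 4 exceeded 2 scanner errors. In RNA of a bulk sample, fewer cells of a type and less RNA per cell cannot be told apart. Since the labels give no cell type, 13 lists of cell type markers with 64 genes in all were read as a check, and 33 of the genes were measured. The melanocyte list was the only one with all its markers measured (6 of 6). By the brightest measured probe of each, signals were 4651 to 215584 in S180 and 5683 to 233546 in DMSO, with log2 differences between -0.01 and 0.26. Over all measured probes of these markers the differences ran from -0.23 to 0.28. None of 6 hepatocyte markers was measured, and of the 5 erythroid markers with a probe 2 were, Hba-a1 and Klf1, at signals of 26.1 and 17.8 in S180 against 36.0 and 27.2 in DMSO. Of the 33 measured markers 1 was 1.5-fold higher and 3 were 1.5-fold lower, differences as large as those of the members. Over all measured genes 3.08% were 1.5-fold higher and 1.71% lower. Lyz2 and Epcam, among the lower markers, were dim, and 9.48% of the measured probes of the dim class were 1.5-fold apart in either direction. Nanog, a stem cell marker, had a signal of 333.9 in S180 and 257.1 in DMSO (0.66). Col1a2, a fibroblast marker, had 639.5 in S180 and 1378 in DMSO (-0.83, with -0.33 on its other probe). The dim macrophage marker Lyz2 had a signal of 16.0 in S180 and 34.7 in DMSO (-0.84). The dim epithelial marker Epcam lay at -5.53 in S180 and -4.64 in DMSO after scaling (-0.89). These markers do not stand for their lists. The 4 measured fibroblast markers ranged from -0.83 to -0.02, with Col1a1 at -0.02. The 4 measured macrophage markers ranged from -0.84 to 0.22, with the brighter Csf1r at 0.22 and Cd68 at -0.06. The 2 measured epithelial markers lay at -0.89 and -0.50, and the 2 measured stem cell markers at 0.29 and 0.66. The part of the markers in the results below was not tested.

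All 21 member probes were measured on both arrays, 13 in the bright class, 5 in the middle class and 3 in the dim class. Tfrc, the transferrin receptor gene, was higher in S180 on both of its probes, by 0.72 and 0.57. Fbxl5, a sensor gene, was lower on all 3 of its probes, by amounts from 0.12 on the brightest to 0.81 on a dim one. Aco1, Trf and both ferritin genes were higher on every probe by 0.06 to 0.52, but all of these probes except the dim one of Aco1 lay below 0 on a scale set by spike-in transcripts, as did the Fth1 probe and 1 Ftl1 probe with quantile normalization. Ireb2 was lower on its single probe, and the probes of Ncoa4, Slc11a2 and Slc40a1 lay between -0.10 and 0.23. The 4 differences over 2 scanner errors were those of both Tfrc probes, the dim Aco1 probe and the dim Fbxl5 probe. At a 1.5-fold threshold 1 of 21 member probes was higher in S180, a probe of Tfrc, against 3.21% of all measured probes. Likewise 1 of 21 was lower, a dim probe of Fbxl5, against 1.67% of all measured probes. Each count is 1 probe, and nothing is read from it about the members. None of the 21 differed 2-fold, which 0.63% of measured probes did in the higher direction and 0.15% in the lower. The median difference of the 21 probes was 0.14, against 0.003 over all measured probes, and 15 of the 21 lay above the median probe. With each gene taken by its brightest probe, the median over the 10 genes was 0.13, against 0.004 over 20756 measured genes, and 7 of 10 genes lay above the median gene.

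**Figure D1:**
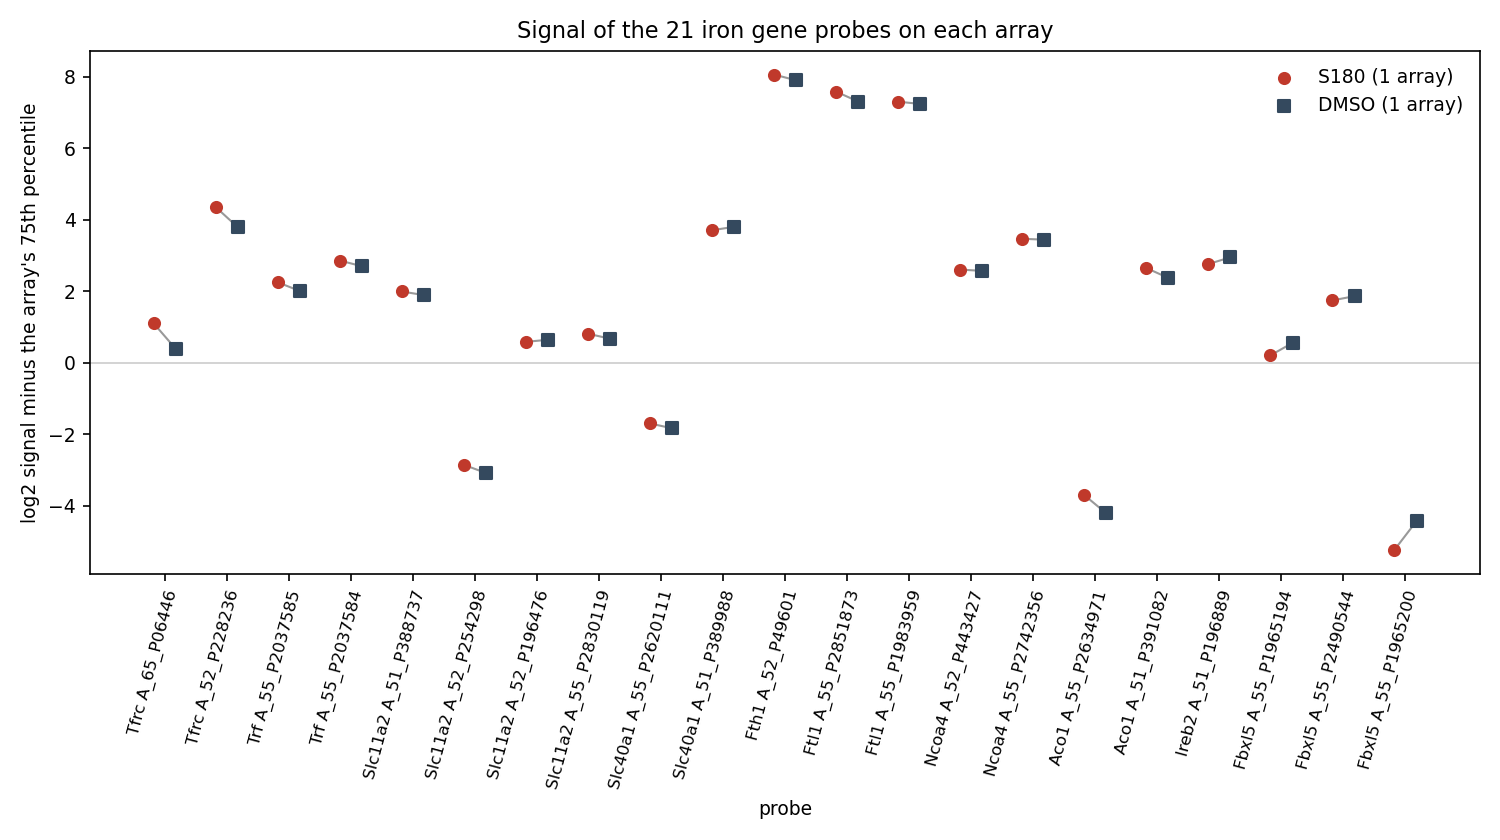
Each pair of points is 1 probe, with its log2 signal minus the array's 75th percentile on the vertical axis, for the S180 array (circles) and the DMSO array (squares), 1 array each. The pairs lie close together for most probes, and the widest gaps belong to the Tfrc probe at 1.104 in S180 and 0.38 in DMSO and to the dim Fbxl5 probe at -5.24 in S180 and -4.42 in DMSO.

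A 60-base probe is shown for Tfrc and for Fbxl5, 5′ to 3′, because these genes held the single probes past 1.5-fold in each direction. The Fbxl5 probe shown is the one of middle signal. The Tfrc probe A_65_P06446 lies at chr16:32620470-32620529 on the plus strand, and the Fbxl5 probe A_55_P1965194 at chr5:44149482-44149541 on the minus strand (build mm9, as for all probe positions here). Exons and introns are not annotated in the sources used here.
Tfrc A_65_P06446: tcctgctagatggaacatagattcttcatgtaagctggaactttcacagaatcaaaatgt
Fbxl5 A_55_P1965194: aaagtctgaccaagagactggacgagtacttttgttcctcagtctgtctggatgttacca

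Uptake was led by Tfrc, the receptor that carries transferrin-bound iron into the cell. On the probe printed above, its signal was 1323 in S180 and 974.3 in DMSO, or 1.104 and 0.38 after scaling. The difference of 0.72 (1.65-fold higher in S180) was 9.2 times the SD between spots of its class and 3.5 times the scanner's error. The other Tfrc probe, A_52_P228236 at chr16:32632255-32632314, had a signal of 12585 in S180 and 10300.1 in DMSO, or 4.35 and 3.78 after scaling. Its difference of 0.57 (1.49-fold) fell just short of the 1.5-fold threshold and was 13.6 times the spot SD and 2.8 times the scanner's error. The Tfrc probes thus gave nearly the same answer, 0.15 apart, at the 98.2 and 96.6 percentiles of all measured probes. Both stayed higher in S180 in each of the 9 ways of processing tried, at 0.36 and 0.21 on the spike-in scale, where the median probe lay at -0.36.

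Trf encodes transferrin, the iron carrier of plasma, which some cells outside the liver also make. Its probe A_55_P2037585 (chr9:103112826-103112885) lay at 2.25 in S180 and 2.004 in DMSO, a difference of 0.25 (1.19-fold). The probe A_55_P2037584 (chr9:103111207-103111266) lay at 2.86 in S180 and 2.70 in DMSO, a difference of 0.16 (1.12-fold). Both were higher in S180 by more than 3 spot SDs, but by only 1.2 and 0.8 scanner errors. Both fell below 0 on the spike-in scale, at -0.12 and -0.20.

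Slc11a2 encodes DMT1, the proton-coupled transporter that moves ferrous iron out of the endosome and into the gut cell. The gene makes mRNAs with different 3′ ends, of which some carry an iron-responsive element. Of its 4 probes 3 were higher, although below 0 on the spike-in scale, and 1 was lower, all by less than 2 scanner errors. Of the probes named for NM_008732, A_51_P388737 (chr15:100218333-100218392) lay at 1.99 in S180 and 1.89 in DMSO, a difference of 0.10. The probe A_55_P2830119 (chr15:100219212-100219271) lay at 0.81 in S180 and 0.67 in DMSO, a difference of 0.14. The third, A_52_P254298 (chr15:100240516-100240575), was dim at signals of 85.2 in S180 and 88.2 in DMSO, and its difference of 0.23 was within the spot SD of 0.278. The probe named for NM_001146161, A_52_P196476 (chr15:100223347-100223406), lay at 0.58 in S180 and 0.64 in DMSO, a difference of -0.06, also within its spot SD of 0.079. Of these differences that of A_51_P388737 exceeded 2 spot SDs, and the other 3 did not.

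Export rests on Slc40a1, which encodes ferroportin, the known iron exporter of vertebrate cells. Its probe A_51_P389988 (chr1:45965255-45965314) had a signal of 8014 in S180 and 10418.6 in DMSO, or 3.70 and 3.80 after scaling, a difference of -0.10 (1.07-fold lower in S180). The probe A_55_P2620111 (chr1:45980637-45980696), which is named for another transcript, had signals of 189.8 in S180 and 209.8 in DMSO, or -1.70 and -1.83 after scaling, a difference of 0.14. The probes of Slc40a1 went in opposite directions, the first by 2.3 spot SDs and the second by 1.7, or by 0.5 and 0.7 scanner errors.

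Storage was read through the ferritin genes and Ncoa4. Fth1 encodes the heavy chain of ferritin, which oxidises iron as it enters the shell, and Ftl1 the light chain, which helps to lay down the mineral core. The Fth1 probe (chr19:10059485-10059544) had a signal of 163931 in S180 and 177985 in DMSO, or 8.06 and 7.89 after scaling. Its difference was 0.16 (1.12-fold, 3.9 spot SDs and 0.8 scanner errors). The Ftl1 probe A_55_P2851873 (chr7:52713318-52713377) lay at 7.58 in S180 and 7.30 in DMSO, a difference of 0.28 (1.22-fold, 6.7 spot SDs and 1.4 scanner errors). The other Ftl1 probe, A_55_P1983959, spans 482 bases of the genome (chr7:52714014-52714495) and lay at 7.30 in S180 and 7.23 in DMSO, a difference of 0.06 (1.04-fold). These directions depended on how the brightest probes were scaled: with quantile normalization the differences were -0.06 for Fth1 and 0.13 and -0.10 for the Ftl1 probes, and on the spike-in scale all 3 lay below 0. Both ferritin genes have near-identical copies elsewhere in the genome, which these probes may also read. Ncoa4 encodes the receptor that delivers ferritin to autophagy for iron release, and it also binds nuclear receptors. Its probes A_55_P2742356 (chr14:32992281-32992340) and A_52_P443427 (chr14:32992124-32992183) differed by 0.03 and 0.04, each within the spot SD of 0.042.

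Sensing genes split by direction. Aco1 encodes iron regulatory protein 1, which works as a cytosolic aconitase when it holds an iron-sulfur cluster and binds RNA when it does not. Its probe A_51_P391082 (chr4:40145117-40145176) had a signal of 3863.9 in S180 and 3863.1 in DMSO, or 2.65 and 2.37 after scaling. The difference was 0.28 (1.22-fold, 6.7 spot SDs and 1.4 scanner errors), but -0.08 on the spike-in scale. The dim Aco1 probe A_55_P2634971, whose genome span of 8533 bases (chr4:40114200-40122732) exceeds its 60 bases, had signals of 47.5 in S180 and 40.3 in DMSO, and its difference of 0.52 was 1.9 times the spot SD of the dim class. Ireb2 encodes iron regulatory protein 2, which is controlled mainly by its degradation. Its probe (chr9:54759984-54760043) had a signal of 4163 in S180 and 5770 in DMSO, or 2.76 and 2.95 after scaling, a difference of -0.19 (1.14-fold lower in S180), which was 4.5 spot SDs and within the scanner's error of 0.204. The pair of sensor genes therefore differed from each other by 0.47 on the log2 scale, with an SD between spots of 0.059 and a scanner error of 0.288. Scaling by 1 factor per array cannot change this value.

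Fbxl5 encodes the iron-binding subunit of the ubiquitin ligase that targets the iron regulatory proteins. On the probe printed above its signal was 708.1 in S180 and 1098 in DMSO, or 0.20 and 0.55 after scaling, a difference of -0.35 (1.28-fold lower in S180, 4.5 spot SDs and 1.7 scanner errors). The brightest Fbxl5 probe, A_55_P2490544 (chr5:44135904-44135963), lay at 1.74 in S180 and 1.86 in DMSO, a difference of -0.12 (1.09-fold lower, 2.8 spot SDs, within the scanner's error of 0.204). The third probe, A_55_P1965200 (chr5:44147222-44147281), is named for the Ensembl transcript ENSMUST00000087465 and was dim, at signals of 16.3 in S180 and 34.8 in DMSO. Its difference of -0.81 (1.76-fold lower) was 2.9 spot SDs, and it was -0.10 with normexp background correction. Fbxl5 was thus lower in S180 on each of its 3 probes, but by amounts that ranged over 0.70 on the log2 scale. The percentiles of these differences among all measured probes were 6.8, 28.4 and 0.5.

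**Figure D2:**
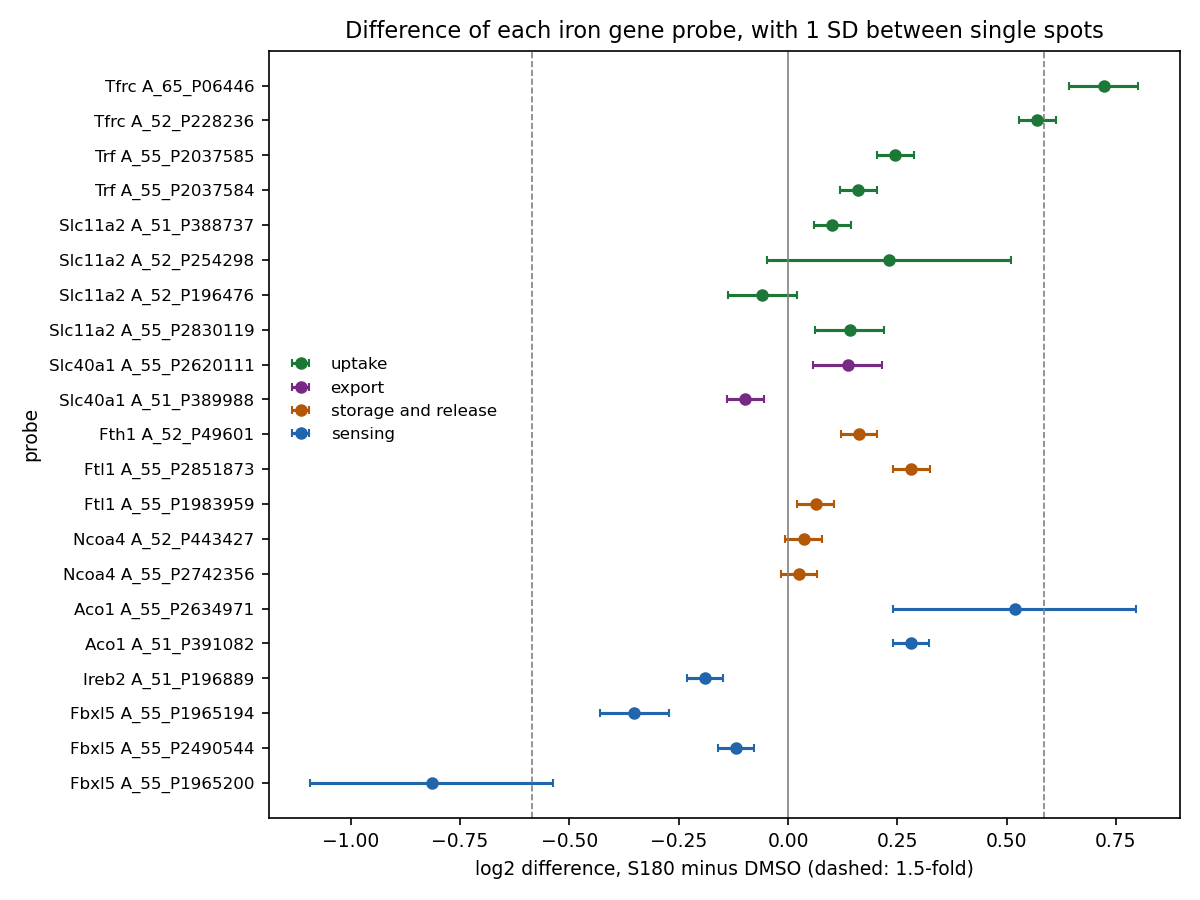
Points show the log2 difference of each probe, S180 minus DMSO, coloured by role, with bars of 1 SD between single spots of the same signal class and dashed lines at 1.5-fold. The Tfrc probes at 0.72 and 0.57 stand to the right of all other member probes. The 3 Fbxl5 probes and the Ireb2 probe lie left of 0, as do 1 Slc40a1 probe at -0.10 and 1 Slc11a2 probe at -0.06.

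By brightest probe the Tfrc difference was set against that of each other member, a comparison that a single scaling factor cannot move. It exceeded the differences of Aco1 and Ftl1 by 0.29 each, that of Trf by 0.41 and that of Fth1 by 0.41. It exceeded that of Slc11a2 by 0.47, that of Ncoa4 by 0.54, that of Slc40a1 by 0.67, that of Fbxl5 by 0.69 and that of Ireb2 by 0.76. Tfrc was the member with the largest difference by brightest probe, so every gap is positive by construction, and that choice also raises its size. All 9 gaps were over 2 times their spot SD of 0.059. Those to Slc40a1, Fbxl5 and Ireb2 were also over 2 times their scanner error of 0.288, and the others were not. Because of the choice of Tfrc, these multiples are no test. The gaps describe values on the same arrays, and do not say which gene kept its absolute amount.

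The signs of the small differences depended on the scaling. In the 9 ways of processing, 3 member probes were higher in S180 throughout, namely both Tfrc probes and the dim Aco1 probe. The 6 that were lower throughout were the 3 of Fbxl5, the Ireb2 probe, the brighter Slc40a1 probe and the Slc11a2 probe named for NM_001146161. The other 12 changed sign, all of them being below 0 on the spike-in scale. Relative to the median probe of each scaling, 11 stayed above it throughout, 6 stayed below it and 4 changed sides, among them the Fth1 probe and 1 Ftl1 probe. Several of the 9 ways scale by 1 factor per array, which cannot move a probe to the other side, so they are no separate check of this.

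**Figure D3:**
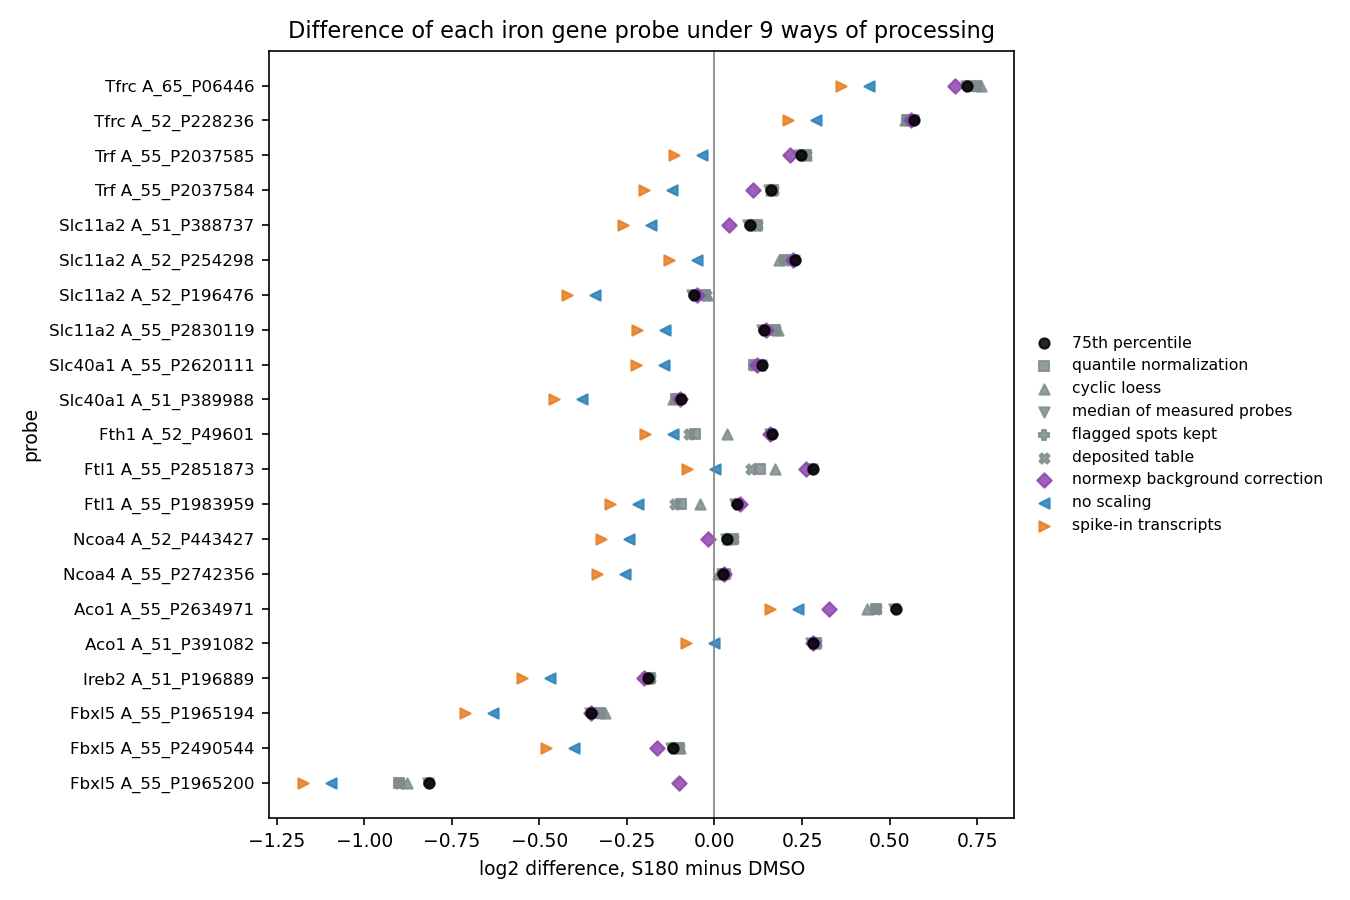
The horizontal axis gives the log2 difference, S180 minus DMSO, of each of the 21 probes, and each symbol is 1 of 9 ways of processing the same 2 arrays. Values on the spike-in scale and without scaling lie left of the others for every probe, and the dim Fbxl5 probe has the widest spread, from -1.18 to -0.10.

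Sequence before the start of Tfrc and Ireb2 is shown because these genes of the same pathway differed in opposite directions. The windows are RefSeq's in build GRCm38.p6 (the arrays' positions are in mm9) and were searched on both strands for ACGTG and GCGTG, the core letters that hypoxia-inducible factors bind, a search chosen with earlier results of these data known. Capitals mark the matches, which read CACGC where GCGTG lies on the other strand. The Tfrc stretch is chr16:32608646-32608895 and the Ireb2 stretch chr9:54863505-54863754, each the 250 bases before the first annotated start, plus strand.
Tfrc upstream: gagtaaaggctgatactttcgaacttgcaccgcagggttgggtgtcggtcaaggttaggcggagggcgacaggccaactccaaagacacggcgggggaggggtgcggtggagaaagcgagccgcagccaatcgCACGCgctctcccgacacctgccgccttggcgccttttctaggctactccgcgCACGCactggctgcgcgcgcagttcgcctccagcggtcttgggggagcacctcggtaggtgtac
Ireb2 upstream: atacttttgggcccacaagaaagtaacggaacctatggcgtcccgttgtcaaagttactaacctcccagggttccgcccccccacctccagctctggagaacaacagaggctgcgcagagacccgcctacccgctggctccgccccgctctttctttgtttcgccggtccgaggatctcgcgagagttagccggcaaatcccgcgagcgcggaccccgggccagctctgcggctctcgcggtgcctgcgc
The Tfrc stretch held 2 matches and the Ireb2 stretch held 0. A further ACGTG of Tfrc crosses this annotated start, from base -2 to base 3, within chr16:32608882-32608911.
Tfrc start site: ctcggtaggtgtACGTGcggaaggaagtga
Of the 10 members 6 had a window in the RefSeq table, with 10 windows in all of 300 bases each (250 before and 50 after a start), and 6 of the 10 windows held at least 1 of the motifs. They belonged to Tfrc, Fth1, Ftl1 and Ncoa4, and those of Aco1 and Ireb2 held neither. The Tfrc windows overlap and share the ACGTG printed above, and some Ncoa4 windows overlap too, so the 10 are not separate stretches. Over all 32851 windows of this length 43.8% held at least 1 of the motifs, 19.6% held ACGTG and 32.4% held GCGTG. A match describes letters only.

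Beyond the 10 genes, 97 other genes of iron and haem handling were listed, of which 84 were measured, each by its brightest probe. By that probe only Hmox1 was at least 1.5-fold higher in S180 (1 of 84, against 3.08% of measured genes). None of the 84 were 1.5-fold lower, against 1.71%. By the same rule no member reached 1.5-fold, the largest difference being that of Tfrc at 0.57. The ferroxidase gene Cp lay at 0.17 on its brightest probe and at 0.65, past 1.5-fold, on another. Hmox1 encodes haem oxygenase 1, which breaks down haem and frees its iron. It had a signal of 50853 in S180 and 33296 in DMSO, or 6.37 and 5.48 after scaling, a difference of 0.89 (1.86-fold), and its other measured probe gave a larger one. It was 0.53 on the spike-in scale. The median of the 84 genes was -0.05, against 0.004 over all measured genes, with 34 genes above the median gene and 50 below it.

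By role, genes of mitochondrial iron import and iron-sulfur cluster assembly had a median of -0.08, with 22 of 30 below the median gene and none 1.5-fold apart, and they ranged from -0.29 to 0.45. The genes of haem synthesis had a median of -0.02 (10 of 11 measured), and those of haem breakdown and transport 0.003 (12 of 14 measured). The other genes of the transferrin cycle and the ferrireductases had a median of -0.01 over 8 measured genes, none of them past 0.21 in either direction. The other 4 mRNAs listed for an iron-responsive element lay between -0.20 and 0.18. The partners of FBXL5 in its ligase, Skp1, Cul1 and Rbx1, lay between -0.18 and 0.06. Of 11 genes of the hepcidin axis 5 were measured, and Hamp, which encodes the hormone hepcidin itself, was not well above background on either array.

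**Figure D4:**
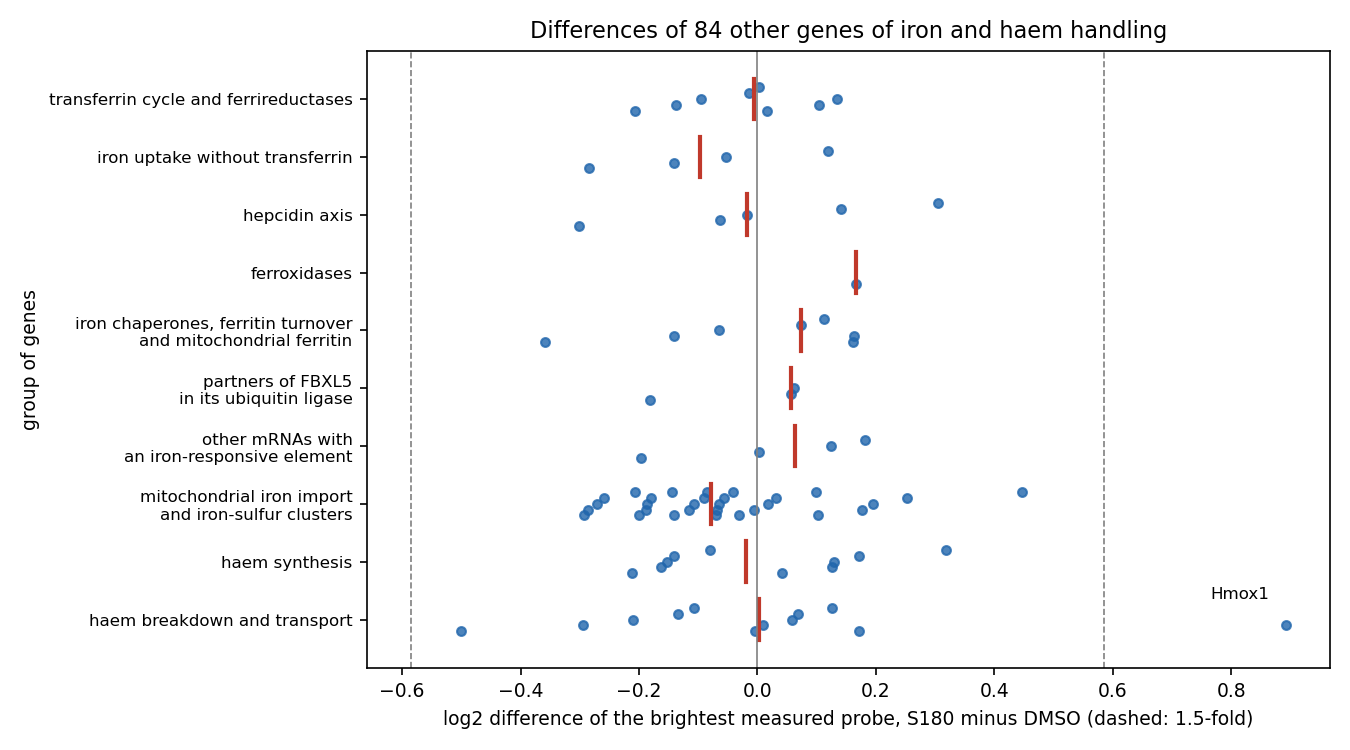
Each point is 1 of 84 measured genes, placed by the log2 difference of its brightest probe, S180 minus DMSO, in rows by role, with red bars at the median of each role and dashed lines at 1.5-fold. Hmox1 at 0.89 is the single point beyond a dashed line, and the genes of mitochondrial iron and iron-sulfur clusters centre at -0.08.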

How the data were processed

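Signals of 1 S180 and 1 DMSO array were used. Spot intensities are the authors' scanner output from Agilent Feature Extraction 10.7.1.1 (also in the submitters' processing notes), with background subtracted and spatial and multiplicative trends removed within each array, per the file headers. The spot flags, each an other kind of value coded 0 or 1, are the scanner software's, per the file headers. The deposited table gives log2 values, and no label or header says how they were made. For S180, 98.31% of its 56745 probes lay within 0.01 of quantile-normalised log2 signals, and for DMSO 97.93%. Both columns have a median of 5.27, so the scale was taken from this match and no centring was seen.

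Control spots and spots with an outlier flag (120 in S180, 195 in DMSO) were left out, spots of a probe were averaged as log2, and the 75th percentile of the array was subtracted. Member probes were found by gene name in the files. Other genes were named through RefSeq accessions (GRCm38.p6, names only), which matched 32994 probes, and 520 more through a unique synonym. A gene was represented by its brightest measured probe. No test was run, since each group has 1 array. Calls by fold were checked on simulated data with equal noise for all probes and changes well past the threshold. That check covers the working of the code only, not the error of dim probes or small differences. Normexp (offset 50), quantile and cyclic loess used limma 3.58.1 in R 4.3.3, and the rest Python 3.11.15. The spike-in scale used 7 of 8 transcripts, leaving out 1 that was not well above background in every spot. The 8 do not count spike-in probes that were left out by name beforehand.

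The members, lists and motifs were chosen with earlier results of these data known. By rule the text names every member and any other iron gene at least 1.5-fold apart, up to 8 in each direction. Genes named beyond it (Hamp, Skp1, Cul1, Rbx1, Cp, the cell type markers, Hebp1, Bdh2, Iba57, Cpox and those given for a setting) illustrate a list and were chosen after their values were seen. No gene is named for a pattern like a member's, which 2 arrays cannot rank.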

Additional observations from a re-analysis of the deposited data

How the results depend on the processing

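The median difference of the 10 member genes (0.131) was 0.075 with quantile normalization, 0.078 with cyclic loess, 0.076 with normexp and 0.066 in the deposited table. It was -0.150 without scaling and -0.230 on the spike-in scale. Its distance above the median gene ranged from 0.042 to 0.151 over the 11 settings. Scaling by 1 factor per array cannot change that distance, which was 0.127 in the main setting, without scaling and on the spike-in scale. Those settings are therefore no separate check of it. Without scaling and on the spike-in scale 0 member probes were 1.5-fold higher, 2 were lower, both of Fbxl5, and 1, the dim Fbxl5 probe, was 2-fold apart. The dim Fbxl5 probe left 0 probes 1.5-fold lower with normexp and among the brighter probes alone, which leave it out. Other iron genes 1.5-fold apart numbered 9 on the spike-in scale, all lower, 3 without scaling (Hmox1 higher, Bdh2 and Hebp1 lower), 3 without a filter on dim probes (Hmox1, Steap4, Hephl1) and 0 at a 2-fold threshold. Hmox1 was 0.53 on the spike-in scale, short of 1.5-fold. Over all measured probes the 1.5-fold calls were 1048 higher and 545 lower in the main setting, 879 and 717 with quantile normalization, and 248 and 4962 on the spike-in scale, where the median probe lay at -0.358. The cause was not tested. Of 168 values of member probes under an alternative, 112 lay within 1 spot SD of the main value. This count follows largely from the choice of alternatives and is no measure of robustness. Without scaling and on the spike-in scale every member probe shifts by 1 amount, and all lay outside 1 spot SD. Scaling by the median of measured probes and keeping flagged spots hardly move any value, and all lay within it. The deposited table nearly repeats quantile normalization. No paired analysis was possible because each group has 1 array, and for the same reason no replicate could be left out.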

Other observations

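Among the other iron genes the lowest differences, chosen after their values were seen, were those of Hebp1, which encodes a haem-binding protein, and Bdh2, which encodes a short-chain dehydrogenase. Hebp1 had a signal of 442.9 in S180 and 761.2 in DMSO, a log2 difference of -0.50. Bdh2 had a signal of 3552 in S180 and 5535 in DMSO, a log2 difference of -0.36. In the higher direction Iba57, a factor of iron-sulfur cluster assembly, followed Hmox1 at 0.45, with a signal of 1039 in S180 and 927 in DMSO. Cpox, an enzyme of haem synthesis, lay at 0.32 with 0.30 from its other probe. Each was read on 1 array per group, and none reached 1.5-fold.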
